A study of Triticum aestivum with 6 samples.

Results

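Neighbouring genes on chromosomes 5D and 6D of common wheat were examined in 2 windows that hold many genes with higher expression in axillary buds of the tatfl1-5 mutant than in those of Fielder. The windows run from TraesCS5D02G334300 to TraesCS5D02G338000 and from TraesCS6D02G211900 to TraesCS6D02G214700. They hold 49 of the 70043 genes listed in the count table, 25 on 5D and 24 on 6D. The windows were chosen from the same comparison of mutant and Fielder that is described here, because many of their genes were higher in the mutant. The number of raised genes, their fold changes and the ends of the windows are therefore a description, and none of them was tested as a finding. Expression is given for each library and beside the 20 listed genes on either side of each window.

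Axillary buds form in the leaf axils and can grow out into tillers, the side shoots of a grass. TFL1 proteins belong to the family of phosphatidylethanolamine-binding proteins that also contains the flowering signal FT, and they delay flowering and shape the shoot in many plants. Common wheat is a hexaploid whose A, B and D subgenomes carry similar copies of most genes, so that reads can be shared between copies. Plant genes that lie side by side can be tandem copies of one ancestor or unrelated neighbours, and neighbours often differ in expression. In identifiers such as TraesCS5D02G334300 the characters after TraesCS name the chromosome, and the final number increases along it. The sources used here attach no name, function or sequence to the 49 genes. They are described by identifier, length and expression alone, and whether any of them are copies of one another was not tested.

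The libraries came from axillary buds of wild-type Fielder, a spring wheat, and of 1 transgene-free tatfl1-5 line (aabbdd), with 3 replicates each. In that line CRISPR/Cas9 editing had left null alleles of TaTFL1-5 in all subgenomes, in plants regenerated from Fielder callus. The mutant is thus a single edited line, and anything else that this line carries cannot be told apart from the edit. The text of the study gives different seedling ages in its results and its methods, and the replicates are called biological repeats without further detail.

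The library totals lay between 13320461 and 17174131 counts. TaTFL1-5A (TraesCS5A02G128600) had Fielder counts of 9, 14 and 21 and mutant counts of 1, 7 and 5, and TaTFL1-5B (TraesCS5B02G127600) had 46, 44 and 31 against 20, 19 and 23. Neither difference passed the threshold (adjusted p = 0.147 and 0.131 in edgeR), and no value was analysed here for TaTFL1-5D. Of the wheat genes that the study places in photosynthesis-antenna proteins, a mark of green tissue, 7 could be read, of which 6 were tested and 6 called higher in the mutant. Their summed level was 0.145 to 1.93 CPM (counts scaled to the library total) in Fielder and 52.6 to 56.6 CPM in the mutant, and for 2 of the 7 all Fielder libraries had 0 counts. The 15 genes placed in DNA replication, a mark of dividing cells, were all called higher, from 449 to 501 CPM in Fielder to 1645 to 1750 CPM in the mutant. The study had chosen both lists as changed in these libraries, and the part of tissue make-up in the values below was not tested. In bulk samples, fewer cells of a type and less RNA per cell cannot be told apart. Among genes with 1 to 10 counts, even counts made up 64.5% and 65.3% in Fielder replicates 1 and 2 and between 53.1% and 55.7% in the other 4 libraries. The part of this difference in the values of genes with few counts was not tested.

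Of the 49 genes, 39 had enough counts to be tested, 19 on 5D and 20 on 6D. Calls required an adjusted p-value under 0.05 in edgeR's quasi-likelihood test together with a difference of more than 2-fold. By this rule 11 genes of the 5D window were called higher in the mutant and 0 lower, and 9 genes of the 6D window were called higher and 1 lower. Among the raised genes, TraesCS5D02G334900, TraesCS5D02G335100, TraesCS6D02G211900 and TraesCS6D02G212900 had under 10 counts in at least 1 Fielder library. Their place among the tested genes rested on their mutant counts. Among all 52228 tested genes, 7.98% were called higher and 5.75% lower. On the rest of 5D 7.46% and on the rest of 6D 7.31% were called higher. The median log2 fold change was 1.20 over the tested genes of the 5D window and 0.37 over those of the 6D window, beside 0.00 over all tested genes. Since the windows were drawn from this comparison, nothing is read from these counts. Against the stricter question of whether a change exceeds 2-fold, 4 genes of the 5D window and 0 of the 6D window were called in edgeR. In the 6D window 6 genes had an unadjusted p-value under 0.05 in that stricter test, and DESeq2 and limma-trend, asked only whether a difference exists, called 9 and 6 genes higher.

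**Figure D1:**
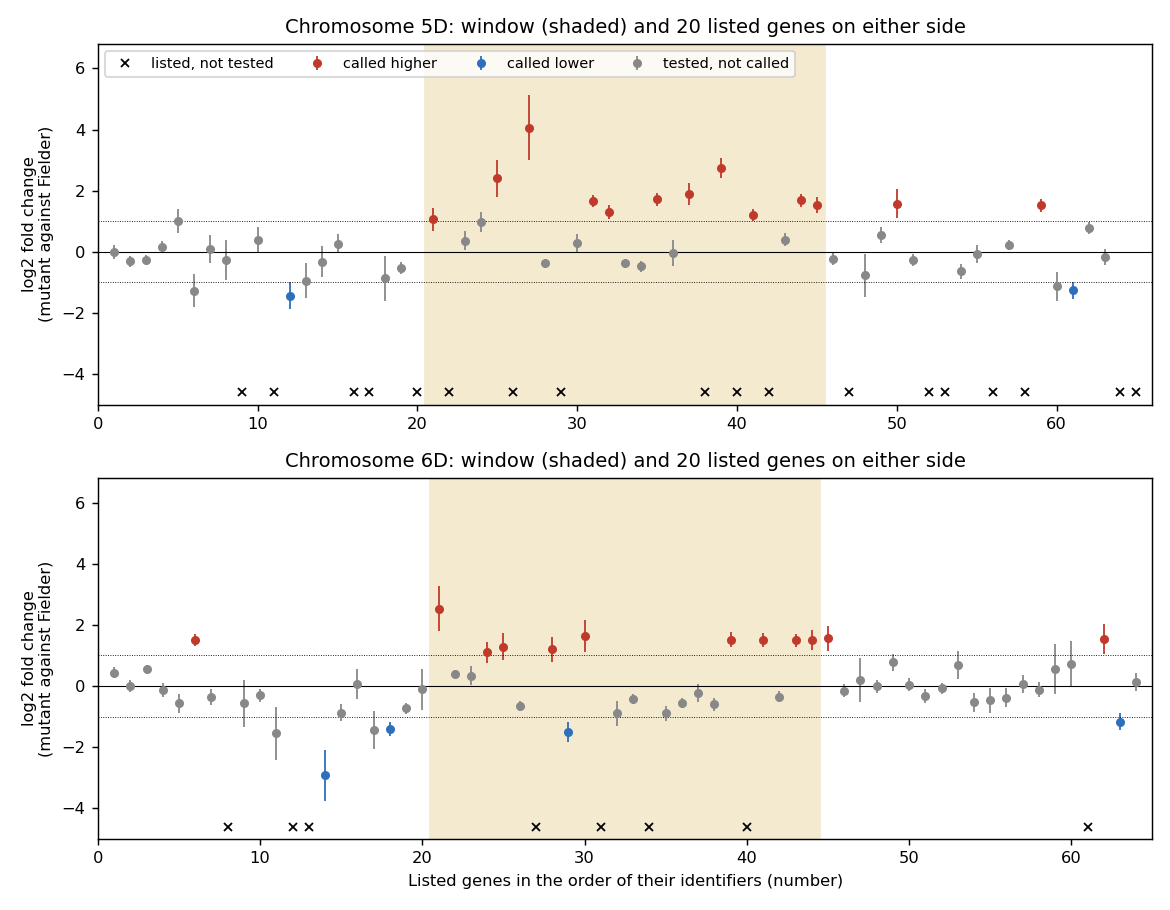
Log2 fold change of the mutant against Fielder (vertical axis) for the listed genes of each window and 20 on either side, in the order of their identifiers (horizontal axis). Points show the edgeR estimate with its standard error, colours show the call, crosses at the bottom mark listed genes that were not tested, and dotted lines mark 2-fold differences. In the 5D window the 11 raised genes alternate with genes that were not called, and in the 6D window 9 raised genes sit in the first part and at the far end with a run of lower genes between them.

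The raised genes did not form an unbroken block. In the 5D window the longest run of neighbouring tested genes called higher was 3, from TraesCS5D02G336800 to TraesCS5D02G337400, and no more than 2 tested genes in a row were not called. In the 6D window the longest run called higher was 2, TraesCS6D02G212200 and TraesCS6D02G212300. A run of 6 tested genes from TraesCS6D02G213100 to TraesCS6D02G213900 lay in the middle of the 6D window, and every gene in it had a log2 fold change below 0. Apart from 1 tested gene, TraesCS6D02G214300, those after this run were all called higher.

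The 5D window opened with a gene close to the 2-fold limit. Counts are given in the order of replicates 1, 2 and 3. TraesCS5D02G334300 had Fielder counts of 23, 41 and 34 and mutant counts of 79, 51 and 77, a log2 fold change of 1.06 (standard error 0.37). Every mutant library was above every Fielder library after scaling, but only 2 of the 6 fits with a library left out kept the call. It was not called without Fielder replicate 1 or 3 or without mutant replicate 1 or 3, where the log2 fold change lay between 0.93 and 1.02. The call was also lost with DESeq2 (1.06), with scaling by library size alone, with no filter on low counts (1.07), after a correction for gene length (0.94) and with limma-trend on log2(FPKM + 0.1) and log2(FPKM + 1) (0.96 and 0.68). TraesCS5D02G334500 followed with Fielder counts of 57, 109 and 127 and mutant counts of 184, 99 and 94, and the groups overlapped. TraesCS5D02G334800 had 51, 31 and 52 counts against 110, 81 and 78, a log2 fold change of 0.97 (standard error 0.33). Its groups did not overlap, yet it stayed just under the 2-fold limit.

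The next raised genes of the 5D window had few or no counts in Fielder. TraesCS5D02G334900 had Fielder counts of 2, 21 and 27 and mutant counts of 68, 149 and 44, a log2 fold change of 2.40 (standard error 0.61). Fielder replicate 1 was far below the other Fielder libraries and mutant replicate 2 far above the other mutant libraries. Without mutant replicate 2 the log2 fold change was 1.76 and the gene was not called. TraesCS5D02G335100 had Fielder counts of 0, 0 and 3 and mutant counts of 12, 26 and 17. Each Fielder library was at or under a floor of 3 counts, and the mean of the mutant libraries was 6.03-fold that floor after scaling. This ratio lay between 4.75 and 7.17 when 1 library was left out, and it does not cover the error of the mutant counts. The call was lost without mutant replicate 2 and with limma-trend on log2(FPKM + 1). TraesCS5D02G335200 beside it was well expressed and went the other way, with 632, 614 and 641 counts in Fielder against 520, 492 and 475. Its log2 fold change was -0.37 (standard error 0.15), and every mutant library was below every Fielder library.

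In the middle of the 5D window raised and other genes alternated. TraesCS5D02G335700 had Fielder counts of 74, 73 and 116 and mutant counts of 148, 87 and 87, with overlapping groups. TraesCS5D02G335800 had 89, 87 and 109 counts against 335, 239 and 337, a log2 fold change of 1.66 (standard error 0.21). TraesCS5D02G336000 had 80, 82 and 159 counts against 307, 222 and 264, a log2 fold change of 1.30 (standard error 0.24). In both raised genes the lowest mutant library stood above the highest Fielder library. TraesCS5D02G336200, the gene with the highest Fielder level of the window per length, had Fielder counts of 987, 1053 and 990 and mutant counts of 879, 649 and 854. TraesCS5D02G336300 had 389, 312 and 464 counts against 308, 283 and 255. For both of these every mutant library was lower after scaling, by log2 fold changes of -0.38 and -0.48, within the 2-fold limit. TraesCS5D02G336400 had Fielder counts of 92, 139 and 181 and mutant counts of 446, 512 and 403, a log2 fold change of 1.72 (standard error 0.21). TraesCS5D02G336600 had 30, 29 and 43 counts against 38, 36 and 26 and a log2 fold change of -0.04. These last genes are immediate tested neighbours, 1 more than 3-fold higher in the mutant and the other with overlapping groups.

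The last part of the 5D window held 5 of its 11 raised genes. TraesCS5D02G336800 had Fielder counts of 16, 48 and 36 and mutant counts of 100, 136 and 131, a log2 fold change of 1.88 (standard error 0.36). TraesCS5D02G337200 had 36, 94 and 63 counts against 276, 539 and 475, a 6.69-fold difference in the fit (log2 fold change 2.74, standard error 0.32). TraesCS5D02G337400 had 240, 241 and 424 counts against 729, 734 and 612, a log2 fold change of 1.20 (standard error 0.19). These calls held whichever library was left out. TraesCS5D02G337400 fell to a log2 fold change of 0.99, just within the limit, after a correction for gene length in each library. TraesCS5D02G337700 had Fielder counts of 154, 208 and 341 and mutant counts of 322, 292 and 302, with overlapping groups. TraesCS5D02G337800 had 150, 220 and 303 counts against 732, 798 and 629, a log2 fold change of 1.68 (standard error 0.20). TraesCS5D02G338000, the last gene of the window, had 59, 65 and 135 counts against 285, 231 and 227, a log2 fold change of 1.52 (standard error 0.26). Both genes were called in all 6 of these fits. In all 11 raised genes of the 5D window every mutant library was above every Fielder library, as was 1 more tested gene of the window, and such a separation was seen in 22.2% of all tested genes. In the opposite direction 3 genes of the window separated, beside 21.0% of all tested genes. The call already favours such a separation, so nothing is read from these counts.

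The 6D window opened with genes of very different abundance. TraesCS6D02G211900 had Fielder counts of 8, 0 and 22 and mutant counts of 58, 44 and 71, a log2 fold change of 2.53 (standard error 0.73). It was not called without mutant replicate 1 or mutant replicate 3, at log2 fold changes of 2.57 and 2.33. TraesCS6D02G212000, the gene with the highest level per length in either window and genotype, had Fielder counts of 1286, 1279 and 1377 and mutant counts of 1782, 1793 and 1677. The mutant libraries were all higher, but by a log2 fold change of only 0.39 (standard error 0.14). TraesCS6D02G212100 had 67, 104 and 61 counts against 120, 85 and 96, with overlapping groups. TraesCS6D02G212200 had 28, 93 and 91 counts against 184, 136 and 133, a log2 fold change of 1.10 (standard error 0.34). TraesCS6D02G212300 had 14, 52 and 30 counts against 65, 107 and 61, a log2 fold change of 1.28 (standard error 0.44). For these 2 raised genes Fielder replicate 1 was the lowest library, and without it their log2 fold changes were 0.77 and 0.97 and neither was called. TraesCS6D02G212200 was also not called without mutant replicate 1 or 3, and of the fits with a library left out only that without Fielder replicate 2 kept the call of TraesCS6D02G212300. The former was not called with limma-trend on log2(FPKM + 0.1) or log2(FPKM + 1) (1.07 and 0.61). The latter was not called with library size alone (1.21), after the correction for gene length (1.10) or with limma-trend on log2(FPKM + 1) (0.96).

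The following genes of the 6D window moved in both directions. TraesCS6D02G212400 had Fielder counts of 1975, 1934 and 2264 and mutant counts of 1380, 1593 and 1036, a log2 fold change of -0.65 (standard error 0.16). TraesCS6D02G212700 had 32, 19 and 28 counts against 83, 48 and 56, a log2 fold change of 1.20 (standard error 0.41), and a single left-out library kept the call in 1 of 6 cases. That was the fit without Fielder replicate 1, and in the other 5 its log2 fold change lay between 0.98 and 1.35. It was also not called with library size alone (1.13) or with limma-trend on log2(FPKM + 0.1) or log2(FPKM + 1) (1.04 and 0.57). TraesCS6D02G212800 had 66, 117 and 143 counts against 30, 44 and 39, a log2 fold change of -1.51 (standard error 0.33). It was the only gene of either window called lower, and each of the 6 fits kept that call. TraesCS6D02G212900, its neighbour, had Fielder counts of 7, 27 and 56 and mutant counts of 88, 136 and 50, a log2 fold change of 1.64 (standard error 0.52). Its mutant replicate 3 exceeded Fielder replicate 3 by a small margin in CPM and was level with it in FPKM (counts scaled to gene length and library total), at 2.42 each. The call was lost when replicate 1 or 2 of either genotype was left out, at log2 fold changes from 1.21 to 1.70, and with limma-trend on log2(FPKM + 0.1) at 1.73.

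The run of 6 genes in the middle of the 6D window had log2 fold changes below 0 throughout, and none passed the 2-fold limit. TraesCS6D02G213100 had Fielder counts of 79, 45 and 58 and mutant counts of 22, 43 and 35, a log2 fold change of -0.90 (standard error 0.42). TraesCS6D02G213500 had 132, 219 and 169 counts against 97, 102 and 83, also a log2 fold change of -0.90 (standard error 0.24). TraesCS6D02G213300, TraesCS6D02G213600 and TraesCS6D02G213900 had between 301 and 815 counts in each Fielder library and between 244 and 507 in each mutant library, with log2 fold changes of -0.43, -0.55 and -0.60. These 5 genes had no mutant library as high as the lowest Fielder library. TraesCS6D02G213800 had 117, 120 and 83 counts against 98, 78 and 104 and a log2 fold change of -0.23, and its groups overlapped.

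At the far end of the 6D window, 4 genes had nearly the same fold change. TraesCS6D02G214000 had Fielder counts of 70, 101 and 81 and mutant counts of 221, 203 and 302, a log2 fold change of 1.51 (standard error 0.24). TraesCS6D02G214200 had 70, 127 and 182 counts against 362, 380 and 324, a log2 fold change of 1.50 (standard error 0.24). TraesCS6D02G214400 had 123, 124 and 114 counts against 346, 316 and 373, a log2 fold change of 1.49 (standard error 0.20). TraesCS6D02G214700 had 95, 43 and 161 counts against 264, 292 and 287, a log2 fold change of 1.50 (standard error 0.32). The 4 calls held whichever library was left out, and the Fielder libraries were ordered differently from gene to gene. The 4 estimates lay closer together than their standard errors. With 1 library left out, that of TraesCS6D02G214700 ranged from 1.13 to 1.90. Whether these genes changed together was not tested. Between these 4 genes lay TraesCS6D02G214300, with 446, 338 and 439 counts in Fielder, 381, 329 and 274 in the mutant and overlapping groups. In the 6D window 10 genes had every mutant library above every Fielder library and 7 the reverse, beside 22.2% and 21.0% of all tested genes. Again the call favours separation, and nothing is read from these counts. The number of 6D genes called higher was 4 without mutant replicate 1 and 5 without mutant replicate 3, and that of 5D genes lay between 9 and 11 when 1 library was left out.

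**Figure D2:**
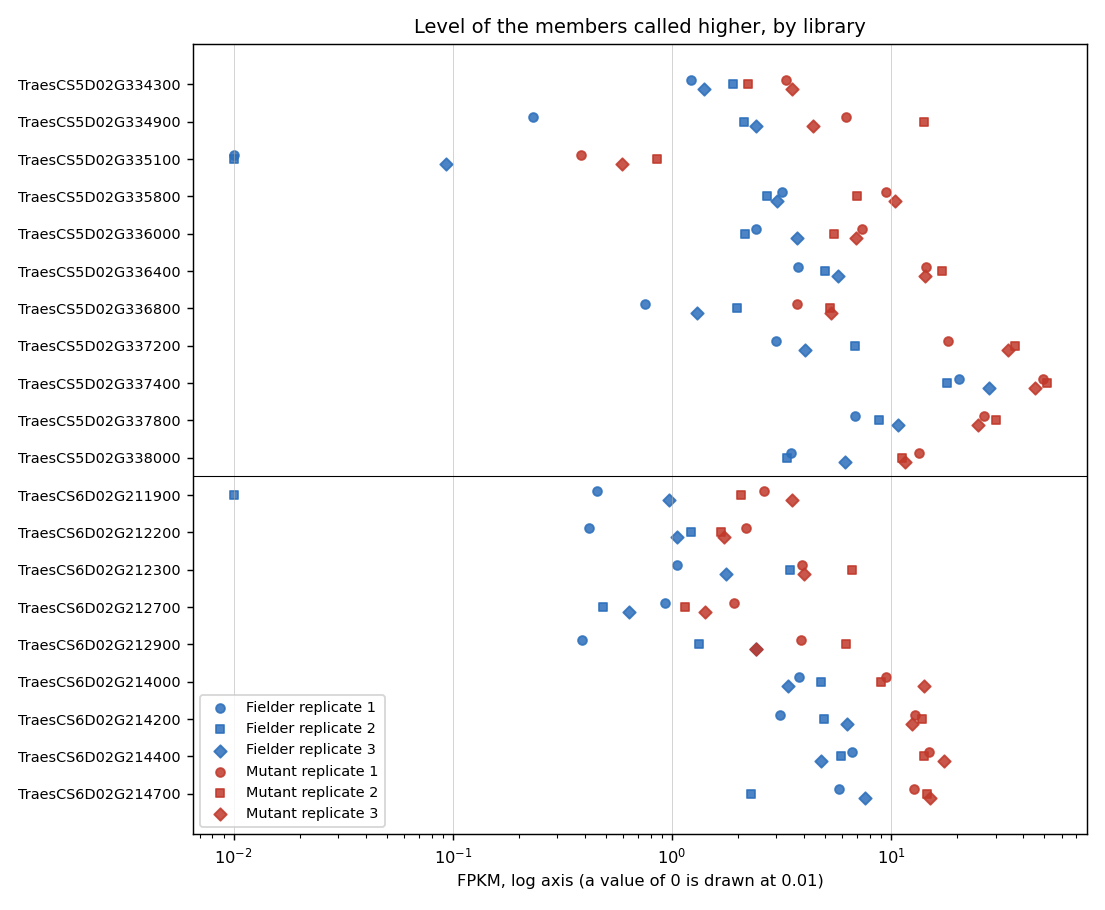
FPKM (horizontal log axis) of the 20 members called higher, by gene (vertical axis) and library, with Fielder in blue and the mutant in red and a marker shape for each replicate. The mutant libraries lie to the right of the Fielder libraries in every gene except TraesCS6D02G212900, where replicate 3 of both genotypes is at 2.42 FPKM.

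The remaining 10 listed genes of the windows, 6 on 5D and 4 on 6D, had too few counts to be tested. TraesCS5D02G335000 had mutant counts of 2, 18 and 0 and 0 counts in all Fielder libraries, so that its counts came almost wholly from mutant replicate 2. TraesCS5D02G335400 had Fielder counts of 5, 8 and 5 and mutant counts of 7, 6 and 10. TraesCS5D02G337300 had 4, 0 and 8 counts against 12, 22 and 2. TraesCS6D02G213400 went the other way, with Fielder counts of 16, 8 and 13 and mutant counts of 1, 4 and 3, and its groups did not overlap. TraesCS6D02G213000 had 0, 10 and 6 counts against 1, 12 and 6, and TraesCS6D02G214100 had 2, 3 and 4 against 8, 2 and 8. The other 4 genes had at most 6 counts in any library, which is close to the floor. Identifiers count in steps of 100, and of the 38 numbers in the 5D window and the 29 in the 6D window, 13 and 5 are not listed in the table and were not analysed here.

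Levels were compared between genes per length, in FPKM. In Fielder the tested genes of the 5D window ranged from 0.0312 to 41.4 FPKM and those of the 6D window from 0.477 to 56.2 FPKM. The median Fielder level was 2.97 FPKM for the raised genes of the 5D window and 5.55 FPKM for its other tested genes. The corresponding medians on 6D were 2.09 and 7.66 FPKM, and the median of all tested genes was 4.68 FPKM. The raised genes were picked by their ratio of mutant to Fielder, which favours low Fielder levels, so nothing is read from these medians. Among the 19 tested genes of the 5D window the raised TraesCS5D02G337400 ranked 2 by Fielder level. In the mutant the medians of the raised genes were 8.96 FPKM on 5D and 4.85 FPKM on 6D, against 4.96 and 4.69 FPKM for the other tested genes. TraesCS5D02G337400 went from 22.1 ± 5.21 to 48.6 ± 3.14 FPKM (SD, n = 3 each) and replaced TraesCS5D02G336200 as the most abundant gene of its window. The latter went from 41.4 ± 5.23 to 30.5 ± 5.07 FPKM (SD, n = 3 each), which put it level with TraesCS5D02G337200, at 29.7 ± 10.1 FPKM in the mutant (SD, n = 3). On 6D the order of the leading genes did not change, with TraesCS6D02G212000 at 56.2 ± 5.51 FPKM in Fielder and 70.3 ± 1.45 in the mutant and TraesCS6D02G212400 at 44.2 ± 3.57 and 26.9 ± 5.02 (SD, n = 3 each).

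**Figure D3:**
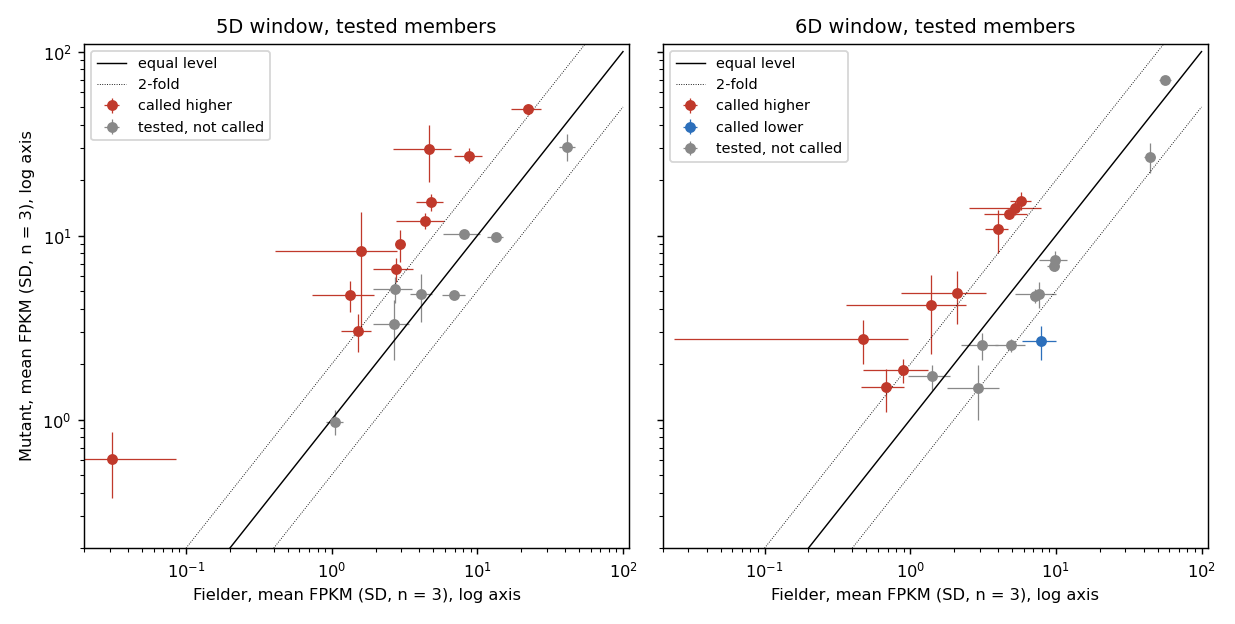
Mean FPKM in the mutant (vertical log axis) against Fielder (horizontal log axis) for the tested members, with SDs over 3 replicates as bars (a lower bar that would reach 0 is shortened) and lines of equal level and of 2-fold difference. Most raised genes lie in the middle or low part of the Fielder range. Choosing genes by ratio favours this, so nothing is read from it. The raised TraesCS5D02G337400 ranks 2 by Fielder level in its window, at 22.1 FPKM. The most abundant Fielder genes of each window, at 41.4 and 56.2 FPKM, lie within 2-fold of equality.

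Summed over its listed genes, the 5D window had 224 to 248 CPM in the Fielder libraries and 356 to 368 CPM in the mutant libraries. The 6D window had 397 to 449 CPM in Fielder and 399 to 434 CPM in the mutant, so its summed level overlapped between the genotypes although 9 of its genes were called higher. Its raised genes contributed 32.4 to 44.6 CPM in Fielder and 102 to 109 CPM in the mutant. Its other tested genes went from 354 to 415 CPM in Fielder to 288 to 326 CPM in the mutant. Much of that difference lay in TraesCS6D02G212400, with a mean of 133 CPM in Fielder and 85.1 CPM in the mutant. On 5D the raised genes went from 57.1 to 85.9 CPM in Fielder to 206 to 235 CPM in the mutant, and the other tested genes from 156 to 172 CPM to 130 to 153 CPM. The split by call favours a rise in the raised genes and a fall in the others, so nothing is read from either.

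**Figure D4:**
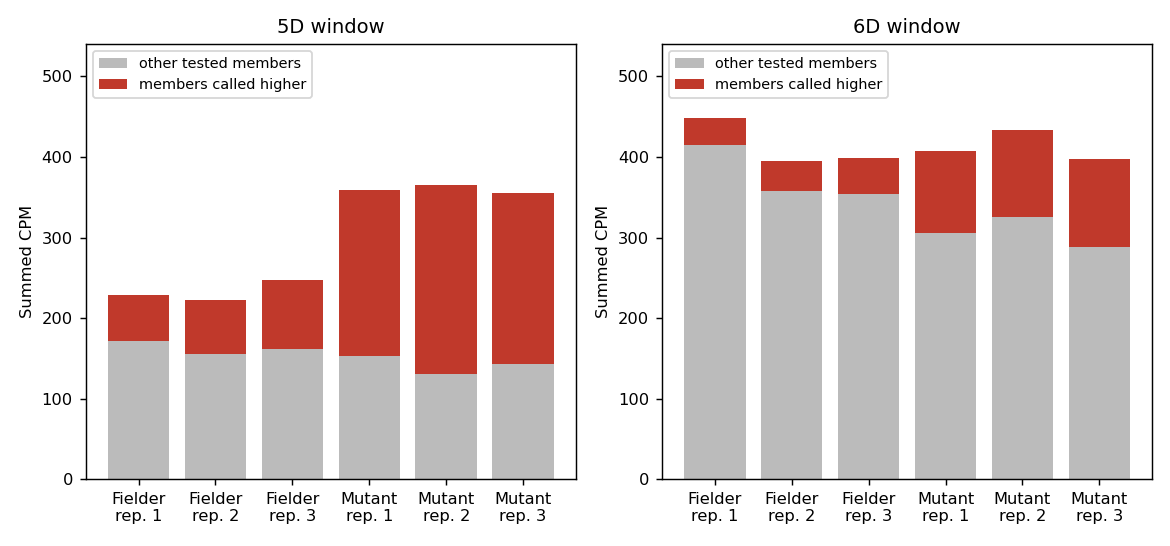
Summed CPM (vertical axis) of the members called higher (red) and of the other tested members (grey), stacked, in each of the 6 libraries (horizontal axis). The red part is larger in the mutant in both windows, which follows from splitting the members by their call. The grey part is smaller in the mutant in both windows, and the same split favours this, so nothing is read from it. The grey part is at 130 to 153 CPM against 156 to 172 CPM in Fielder on 5D, and at 288 to 326 CPM against 354 to 415 CPM on 6D.

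The raised genes varied among the Fielder libraries. The median standard deviation of log2 CPM over the Fielder replicates was 0.43 for the raised genes of the 5D window and 0.80 for those of the 6D window, beside 0.32 for all tested genes. Over the mutant replicates it was 0.27 and 0.33, beside 0.24. Several of the raised genes had few counts in Fielder, and the part of counting error in this spread was not tested. Fielder replicate 3 was the highest Fielder library for 7 of the 11 raised genes on 5D and 4 of the 9 on 6D, and replicate 1 the lowest for 6 and 4. Among all 4170 genes called higher, replicate 3 was highest for 54.2% and replicate 1 lowest for 47.0%. Over all tested genes replicate 3 was highest for 34.6%. Without Fielder replicate 3 the median log2 fold change of the 5D window was 1.51.

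Gene length was not used in choosing the windows, but the raised genes were split from the others by their call. The lengths implied by counts and FPKM had a median of 1602 bases for the raised genes of the 5D window and 1386 bases for those of the 6D window, against 1981 and 2302 bases for the other tested genes. Over all tested genes the median was 1708 bases, and over all 4170 genes called higher it was 1515 bases. In each window 7 of the raised genes were shorter than the median of all tested genes, as were 2492 of the 4170. Genes called higher were thus shorter across the whole series as well, and nothing is read from the lengths in the windows. TraesCS6D02G212200, at 5034 bases, was the longest raised gene, and TraesCS5D02G334900, at 648 bases, the shortest. After the correction for gene length, 17 of the 20 genes were still called higher.

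The windows ended differently on the 2 chromosomes. Just outside the 5D window, TraesCS5D02G334200 had at most 10 counts in any library and was not tested, and TraesCS5D02G338100 had Fielder counts of 299, 327 and 472 and mutant counts of 382, 240 and 322, a log2 fold change of -0.23. On 6D the gene before the window, TraesCS6D02G211800, had 18, 26 and 8 counts against 24, 13 and 13, with overlapping groups. The gene after it, TraesCS6D02G214800, had 27, 14 and 55 counts against 90, 106 and 87 and a log2 fold change of 1.56 (standard error 0.41). Its call held whichever library was left out, so the gene next to the far end of the 6D window was also raised. The listed gene after that, TraesCS6D02G214900, had a log2 fold change of -0.16 and was not called. Of the 19 tested genes after the 6D window 2 were called higher (10.5%, beside 7.98% of all tested genes), and their median log2 fold change was 0.04.

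Among the 40 listed genes around the 5D window 28 were tested, of which 2 were called higher and 2 lower, with a median log2 fold change of -0.24. Of the 15 tested genes before the window 0 were called higher in edgeR, with 1 at an unadjusted p-value under 0.05, and DESeq2 and limma-trend also called 0. The raised genes after it were TraesCS5D02G339000, with Fielder counts of 18, 9 and 45 and mutant counts of 64, 67 and 82, and TraesCS5D02G340200, with 154, 337 and 347 against 725, 874 and 794. TraesCS5D02G333400 and TraesCS5D02G340400 were called lower, with log2 fold changes of -1.43 and -1.26. Leaving out Fielder replicate 1 or 2 or mutant replicate 2 or 3 ended the call of TraesCS5D02G339000 (log2 fold changes 1.19 to 1.62) and left 1 raised gene around the 5D window, and without Fielder replicate 3 there were 3. TraesCS5D02G333400 was not called without Fielder replicate 3 or without any one of the mutant replicates (-1.28 to -1.47), nor TraesCS5D02G340400 without Fielder replicate 3 (-0.95). With limma-trend on log2(FPKM + 1), TraesCS5D02G333400 was not called either (-0.53). Among the 40 listed genes around the 6D window 36 were tested, of which 3 were called higher and 3 lower, with a median log2 fold change of -0.12. Beside TraesCS6D02G214800 the raised ones were TraesCS6D02G209700, with Fielder counts of 154, 225 and 325 and mutant counts of 638, 612 and 729, and TraesCS6D02G217000, with 20, 11 and 18 against 57, 60 and 29. TraesCS6D02G211100, TraesCS6D02G211500 and TraesCS6D02G217100 were called lower, with log2 fold changes of -2.92, -1.41 and -1.17. TraesCS6D02G217000 was not called without Fielder replicate 2 or 3 or mutant replicate 1 or 2 (1.30 to 1.51), TraesCS6D02G211100 without Fielder replicate 2 or mutant replicate 1 (-2.80 and -2.69), nor TraesCS6D02G217100 without Fielder replicate 1 (-0.81). With limma-trend on log2(FPKM + 1), TraesCS6D02G217000 and TraesCS6D02G217100 were not called (0.72 and -0.93). Of these, TraesCS6D02G211500 lies 3 listed genes before the 6D window and had 474, 453 and 481 counts in Fielder against 127, 182 and 228 in the mutant. The flanks as a whole thus had calls in both directions, at 7.81% higher and 7.81% lower of the 64 tested. Among all tested genes the shares were 7.98% and 5.75%, and nothing is read from the flank counts, which lie near these.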

How the data were processed

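RNA-seq of axillary buds gave 6 libraries, grouped by the sample titles. Filtered reads were mapped by the authors to the Ensembl Plants wheat reference, and raw counts per gene were deposited. A second deposited table holds FPKM values, which scale these counts by gene length and library total. The aligner, counter and build are not given in the sources used here, and 0 of 70043 identifiers matched the RefSeq gene table. The labels and the methods name different library kits. Gene length was recovered from counts and FPKM.

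The main test was that of edgeR 4.0.16, run in R 4.3.3 on the counts (filterByExpr, TMM, quasi-likelihood test over all 6 libraries, Benjamini-Hochberg adjustment over 52228 tested genes). CPM used TMM-scaled totals of the tested genes, and log2 CPM a prior count of 2. The standard error was the log2 fold change divided by the root of F. The fits were tested on simulated data. The p-values weigh the difference between the groups against the spread between these replicates. They do not cover variation between independently edited lines. Alternatives were DESeq2 1.42.0, RLE factors, scaling by library size alone, a fit of all genes without a filter, at least 10 counts in every library, a test against 2-fold, limma 3.58.1 (limma-trend) with 1 or 0.1 added to FPKM before taking log2, a length offset, the replicate number as a block, other flank sizes, and leaving out each library. Figures used matplotlib 3.10.9.

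Named were all tested members, untested ones with at least 10 counts in total, the called genes of the flanks and those next to each edge. Members and lists were chosen with earlier results of these data known.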

Additional observations from a re-analysis of the deposited data

How the results depend on the processing

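All 20 raised genes had a log2 fold change above 0 under every alternative in which they were tested, and 4 of them were not tested with at least 10 counts in every library. The genes were picked as higher in these same libraries, so this sign adds no support. Of the 20, 19 were also called with DESeq2, 15 with limma-trend on log2(FPKM + 1), 14 without mutant replicate 1 and 4 in the test against 2-fold. The number of genes called higher was 11 in the 5D window and 9 in the 6D window, and 4 and 0 in the test against a 2-fold change. Leaving out 1 library gave 9 to 11 and 4 to 7. The median log2 fold change of the 5D window, 1.20, was 1.06 with DESeq2, 1.08 with at least 10 counts in every library, 0.99 with the length trend removed, 0.73 with limma-trend on log2(FPKM + 1) and 1.07 with no filter, and lay between 1.10 and 1.51 when 1 library was left out. That of the 6D window, 0.37, was 0.07 with at least 10 counts in every library and 0.25 with limma-trend on log2(FPKM + 1), and lay between 0.31 and 0.36 when 1 library was left out. The flank genes called higher, 2 on 5D and 3 on 6D, were 0 and 0 in the test against 2-fold (2 and 2 at an unadjusted p-value under 0.05 in edgeR), 1 on 5D with at least 10 counts in every library, 1 and 1 with 10 listed genes on either side, and 5 and 7 with 40. When 1 library was left out they were 1 to 3 on 5D and 2 to 3 on 6D. Over all tested genes, 4170 were called higher and 3002 lower, against 902 and 494 in the test against 2-fold and 2728 and 2099 with limma-trend on log2(FPKM + 1). The share of calls that were higher, 58.1%, was 50.9% with library size alone (3762 higher and 3625 lower) and 50.2% with the length trend removed (3615 and 3588). The causes were not tested, except that fewer genes or libraries enter some fits.

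No pairing of the libraries by replicate number was seen in the values. With 3 libraries centred within each group the check is weak, and whether same-numbered libraries shared a harvest or preparation was not tested. The deviations of same-numbered libraries from their group means had correlations of -0.024, 0.051 and 0.009 across genes, and 1 of 3 Fielder libraries correlated best with its own number. With the replicate block 10 genes of the 5D window, 9 of the 6D window, 2 flank genes on 5D and 2 on 6D were called higher, the medians were 1.22 and 0.38, and 4297 genes in all were called higher. TraesCS5D02G334300 and the flank gene TraesCS6D02G217000 were not called with the block. Depth limits the genes with fewer than about 10 counts in a library.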
